A study of Mus musculus with 32 samples.

Results

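The immediate early genes followed here are Fos, Fosb, Jun, Junb, Egr1, Egr2, Egr3, Atf3, Ier2 and Nr4a1, 10 genes listed by name. The lungs came from C3H/HeN mice of 2 genotypes, Gsr-WT and Gsr-KO, where Gsr encodes glutathione reductase, the enzyme that returns oxidised glutathione to its reduced form. Each gene was read from the probe set that carried its symbol alone and had the highest mean signal over all arrays, and all 10 were among the 13345 genes tested. Total RNA from a piece of each mouse's lung was hybridised to 1 Affymetrix mouse genome array, for 32 arrays in 10 groups. WT and KO fetuses were taken on embryonic day 19 (E19), with 4 arrays per genotype and no exposure. Newborn mice of either genotype were kept with their dams in room air or in 100% oxygen (hyperoxia) from postnatal day 0 to day 5, and lungs were taken on day 5 (P5) or on day 56 (P56), with 3 arrays in each of these groups. The P56 groups labelled hyperoxia had therefore been out of high oxygen since P5. The labels do not describe the Gsr allele further, nor the sex or litter of the mice.

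Immediate early genes are transcribed within minutes of a growth factor, stress or calcium signal, without the need for new protein, and their mRNAs are short lived. Most signals reach them through MAP kinases acting on SRF and its Elk partners, or through CREB bound at cAMP response elements. The products are mainly transcription factors: Fos and Jun proteins pair to form AP-1, Egr proteins bind GC-rich sites, and the Nr4a proteins are orphan nuclear receptors. In the lung they are known to respond to oxidants, stretch and injury, and also to the handling of fresh tissue.

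Gsr signal lay between 498 and 1541 on the 16 WT arrays and between 138 and 257 on the 16 KO arrays, so genotype labels and signal went together on every array. The lung markers Ager (15943 to 33599) and Sftpc (12636 to 28636) were bright on all 32 arrays, and none of 11 alveolar markers was at or below 100.43, the median of all deposited values, on any array. The liver gene Alb, which lung should lack, ran from 94.4 to 25895. Total signal per array ran from 31172678 to 35272173. A pair of P5 arrays stood apart from their labels in Cdkn1a, a p53 target: the array labelled WT P5 air replicate 3 read 6352, against 848 and 840 for its group, and the array labelled KO P5 hyperoxia replicate 1 read 1296, against 8384 and 8155. Another pair had a high ratio of 3' to 5' signal on the array's actin and Gapdh controls (averaged, and called the 3'/5' ratio from here), a sign of RNA shortened at its 5' end: the log2 ratio was 4.37 for KO E19 replicate 1 and 2.84 for WT P56 hyperoxia replicate 2, and at most 1.55 elsewhere. Where leaving out either pair changed a call or moved a member median by over 1.5 times, the value without it is given. The choice of the high-ratio pair was made after the data were seen. In whole lung tissue, fewer cells of a type and less RNA per cell cannot be told apart. Each array was a separate mouse per the labels.

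The sequences before the transcription starts show one feature that several members share. RefSeq promoter windows (GRCm38.p6) were matched for 7 of the 10 members, Fos, Fosb, Jun, Junb, Egr2, Atf3 and Nr4a1, and for none of Egr1, Egr3 and Ier2. The core of the cAMP response element, TGACG on either strand (CGTCA when read on the opposite strand), lay within 250 bases upstream of the start in 6 of these 7 genes, all but Jun, against 19.8% of 27025 genes with such windows. The Nr4a1 window held 4 cores, starting at positions -233, -213, -69 and -40 from the start, and the Fos window 2, at -129 and -66. The full element TGACGTCA, which contains the core on both strands, was in 0 of the 7 genes (1.77% of all genes), and the AP-1 site TGANTCA was also in 0 (7.82%). A CArG box, the SRF site, was found in 1 gene, Egr2 (1.62% of genes). The windows below are shown for Fos and Nr4a1, for Atf3, whose core sits at position -7, and for Jun, which has none. Egr2 also held 2 cores in a window: the 30-base stretch below holds the core at -55, and the other lay at -111. Cores are in capitals, each sequence runs 5′ to 3′ toward the start, and a match in letters is a description only.
Fos, chr12:85473640-85473889, plus strand: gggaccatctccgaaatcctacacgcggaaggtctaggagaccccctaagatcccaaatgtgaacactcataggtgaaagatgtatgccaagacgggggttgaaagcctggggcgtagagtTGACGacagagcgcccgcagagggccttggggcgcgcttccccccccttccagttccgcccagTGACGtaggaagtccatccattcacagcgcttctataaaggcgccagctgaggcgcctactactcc
Nr4a1, chr15:101266596-101266845, plus strand: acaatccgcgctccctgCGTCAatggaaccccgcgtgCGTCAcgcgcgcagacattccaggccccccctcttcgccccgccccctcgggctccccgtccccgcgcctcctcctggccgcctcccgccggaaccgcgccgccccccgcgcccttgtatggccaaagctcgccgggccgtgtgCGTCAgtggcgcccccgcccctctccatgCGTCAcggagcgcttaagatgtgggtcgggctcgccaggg
Atf3, chr1:191183334-191183583, minus strand: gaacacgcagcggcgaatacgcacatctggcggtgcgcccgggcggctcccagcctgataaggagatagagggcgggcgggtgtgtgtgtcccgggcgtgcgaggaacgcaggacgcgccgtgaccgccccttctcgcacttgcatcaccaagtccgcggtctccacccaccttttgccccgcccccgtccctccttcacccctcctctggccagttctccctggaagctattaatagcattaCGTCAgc
Jun, chr4:95052223-95052472, minus strand: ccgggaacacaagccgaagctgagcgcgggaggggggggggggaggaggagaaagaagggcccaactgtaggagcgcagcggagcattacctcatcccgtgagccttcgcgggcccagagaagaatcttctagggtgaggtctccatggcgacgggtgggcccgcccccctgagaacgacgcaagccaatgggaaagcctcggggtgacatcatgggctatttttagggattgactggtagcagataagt
Egr2, 30 bases at chr10:67537793-67537822, plus strand, from position -76 to -47 of the start, with the CArG box and a core in capitals: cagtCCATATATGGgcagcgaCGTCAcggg
The Egr2 cores were found in 3 of its 5 windows, which overlap in part because several starts are annotated.

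Across the 10 groups most members had their highest means in adult lung and their lowest in fetal or P5 lung, and the amplitude differed between genes. Values are deposited MAS5 signals, comparable between arrays for 1 gene and not between genes. The ratio of the highest to the lowest group mean was 7.44 for Nr4a1, 7.27 for Egr1, 7.03 for Fos and 5.36 for Egr2. It was smaller for Junb (3.35), Egr3 (2.71), Ier2 (2.07) and Atf3 (1.81), and only 1.46 for Jun on the probe set used. The second Jun probe set varied more, with 1751 to 2134 in WT P5 air and 6367 to 6626 in KO P56 air. Fosb was dim throughout: 5 of 32 arrays exceeded 100.43 and 3 of those were the WT P5 hyperoxia arrays. Since the filter on low values asked for 3 such arrays, Fosb would not have passed it without that group. Its values are a description, no ratio is given for it, and counts at P5 are also given for the 9 other members.

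**Figure D1:**
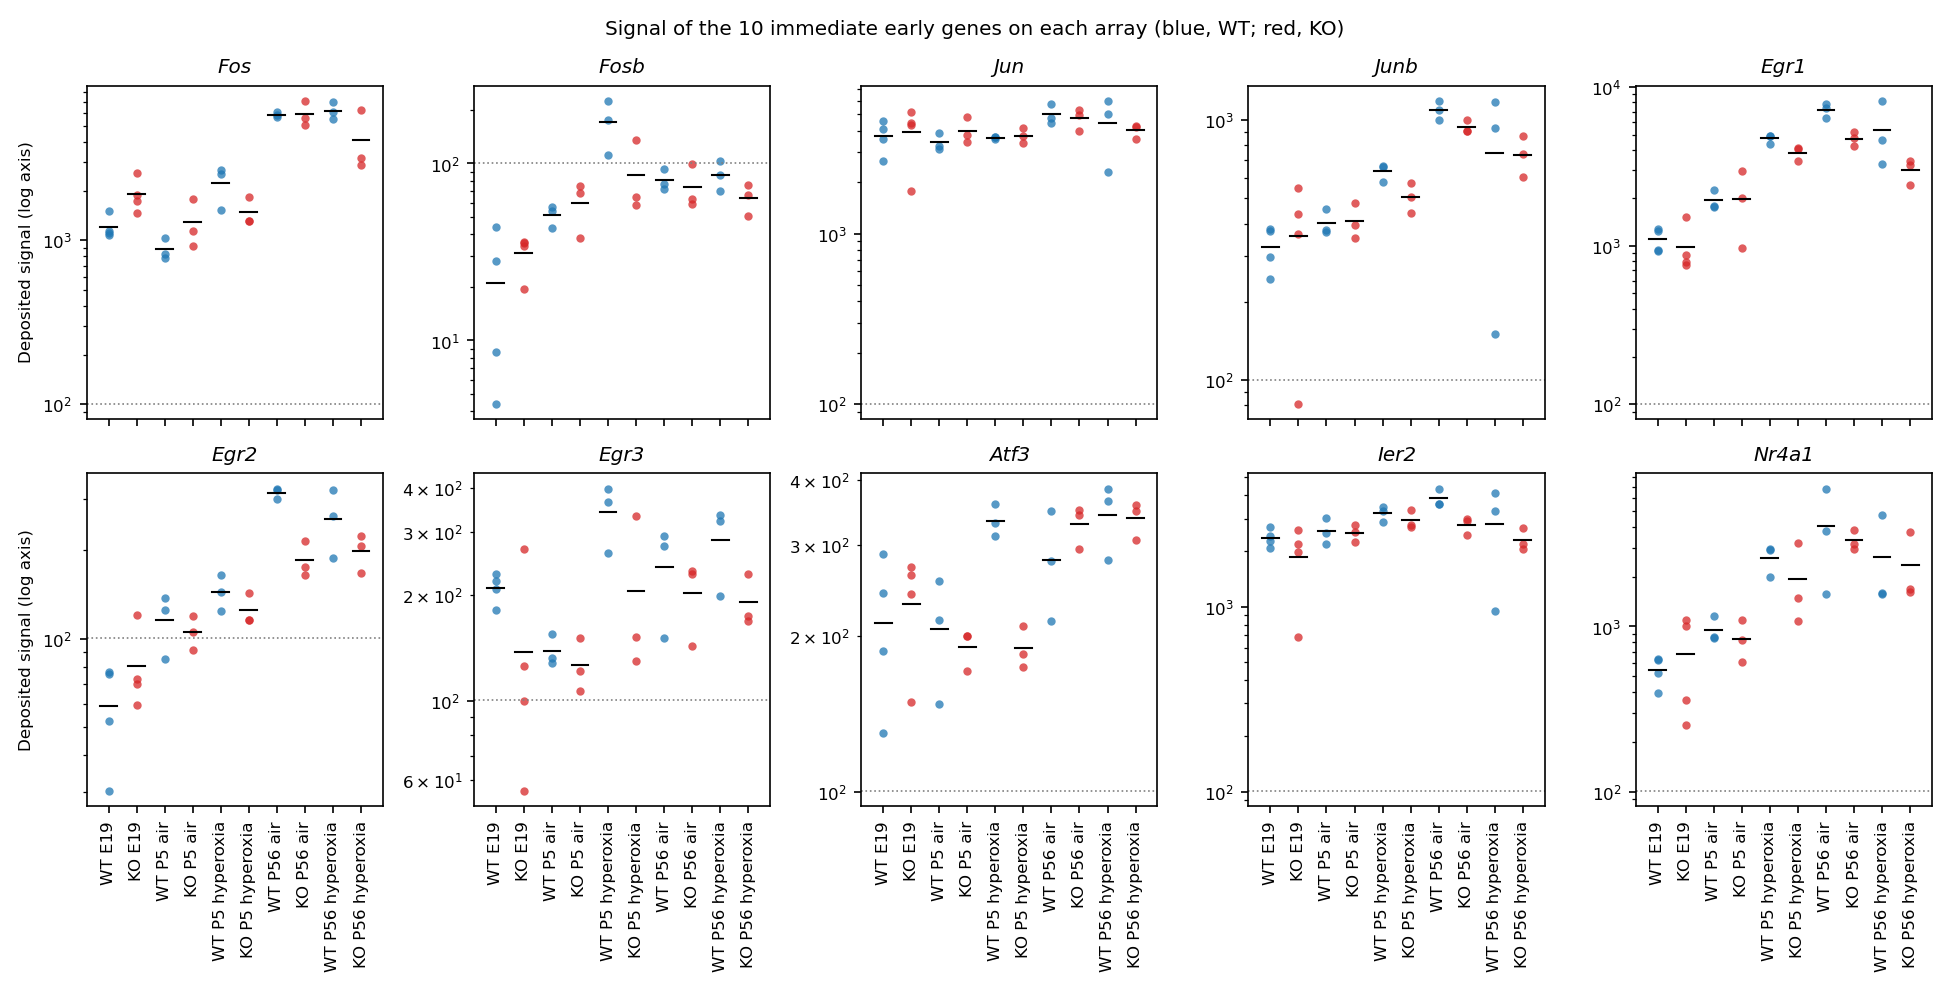
Deposited signal (log axis) of each of the 10 immediate early genes on every array, by group, with WT in blue and KO in red; each point is 1 mouse, black bars are group means and the dotted line is the median of all deposited values, 100.43. Fos, Egr1, Egr2 and Nr4a1 climb from E19 and P5 to P56, Fosb and Egr3 peak in WT P5 hyperoxia, and Jun is nearly level on the probe set shown.

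The order of the groups was not the same for all members. For Fos, the FBJ osteosarcoma homolog and main AP-1 partner of the Jun proteins, the 4 P56 groups came first, with group means of 6197, 5903, 5862 and 4108, followed by WT P5 hyperoxia at 2255 ± 629 (SD, n = 3), and WT P5 air came last at 882 ± 139 (SD, n = 3). Among neighbours in that order, 1 step was clearly wider than the larger of the neighbouring SDs, the drop from WT E19 (1208 ± 198, SD, n = 4) to WT P5 air, and the step from KO P56 hyperoxia to WT P5 hyperoxia equalled it. Egr1, the best known zinc-finger member, ran from 7173 ± 736 (SD, n = 3) in WT P56 air down to 987 ± 362 (SD, n = 4) in KO E19. Its steps exceeded the larger SD below KO P56 air, below KO P5 hyperoxia, below KO P56 hyperoxia and below WT P5 air. The E19 groups (1096 ± 192 and 987 ± 362) sat clear of WT P5 air but not of each other. They were not clear of KO P5 air (1975 ± 998, SD, n = 3), whose lowest array read 963. Egr2 also had WT P56 air first (315 ± 14.2, SD, n = 3) and WT E19 last (58.7 ± 22.2, SD, n = 4), and only the step from KO P56 air (186 ± 27.1) to WT P5 hyperoxia (144 ± 20.6) was wider than the larger SD. Nr4a1 followed the same outline, from 4075 in WT P56 air to 547 in WT E19, but no step in its order exceeded the larger SD.

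For 2 members the highest group mean was not at P56. Fosb, a dimmer Fos relative, was highest in WT P5 hyperoxia (171 ± 56.6, SD, n = 3), apart from the second group, WT P56 hyperoxia (86.6 ± 16.7), by more than the larger SD, and its E19 means (31.2 and 21.2) sat below all others by such a step. Egr3, a target of calcium and growth factor signals, was highest in the same group (343 ± 70.8), though not clear of WT P56 hyperoxia (286 ± 76.3). Atf3, a CREB-family repressor of stress responses, reached similar means in WT P5 hyperoxia (334), in the P56 hyperoxia groups (343 and 338) and in KO P56 air (329), and its lowest means were the KO P5 groups (190 in air and 189 in hyperoxia). Ier2, a small nuclear protein induced with Fos, was highest in WT P56 air (3855 ± 435) and next in WT P5 hyperoxia (3214 ± 314). Jun, on the probe set used, showed no step wider than the larger SD.

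At P5, the question was whether 5 days in 100% oxygen went with other levels of these genes in WT lung. Fos signal was 781, 824 and 1041 on the WT air arrays and 1532, 2560 and 2673 on the WT hyperoxia arrays. Egr1 read 1764, 2246 and 1778 in air and 4368, 4927 and 4940 in hyperoxia. Nr4a1 read 851, 864 and 1158 in air and 1999, 2948 and 2895 in hyperoxia. In each of these 3 genes every hyperoxia array lay above every air array, and the lowest hyperoxia value was that of replicate 1. The same separation held for Fosb (43.3 to 56.6 in air, 112 to 225 in hyperoxia), Egr3 (128 to 155, then 263 to 399), Junb (370 to 456, then 580 to 667) and Atf3 (148 to 255, then 312 to 360). That makes 7 of 10 members with no overlap in this direction, against 7.29% of all 13345 genes, and 6 of 9 without Fosb. Jun, Egr2 and Ier2 overlapped between air and hyperoxia.

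None of these differences passed the test across all genes. On the log2(signal + 26.33) scale the largest were Nr4a1 at 1.42 (95% interval 0.37 to 2.47), Fosb at 1.31 (0.71 to 1.90), Fos at 1.30 (0.76 to 1.84) and Egr1 at 1.29 (0.67 to 1.92). Fosb is listed as a description only, since it passed the filter through the WT hyperoxia arrays. The adjusted p in limma (Benjamini-Hochberg over all genes) was 0.255 for Fos, 0.496 for Fosb and 0.745 for Egr1, and 1 for the other 7 members. By limma 0 of 10 members passed, where 0.00749% of genes did, and 6 members had an unadjusted p under 0.05, as did 409 of the 13345 genes. Without Fosb it was 5 of 9 members. The 10 members were all positive, with a median of 0.90 against -0.02 over all genes, and the median of the 9 without Fosb was 0.66. Without the array labelled WT P5 air replicate 3, and without KO P5 hyperoxia replicate 1, the median of all 10 members was 0.97, and Fos stood at 1.42 (limma, adjusted p = 0.0537). With array quality weights limma called 8 of the 10 members, all but Jun and Egr2, but that fit also called 3236 of all genes where the unweighted one called 1.

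Other probe sets of the same genes gave a mixed picture at P5. A second Egr2 probe set differed by 0.85 between hyperoxia and air in WT, against 0.27 for the one used. The second Jun probe set differed by 0.40 against 0.10. A second Egr3 probe set, too dim to pass the filter, differed by -0.42 against 1.15, so both readings of Egr3 had opposite signs.

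In KO lung at P5 the members lay closer together between air and hyperoxia. Egr1 was the single member whose arrays separated, with 963, 2005 and 2958 in air and 4047, 3393 and 4144 in hyperoxia, where 7.22% of all genes separated in that direction. Its difference was 1.09 (95% interval 0.47 to 1.71; limma, adjusted p = 0.193). Nr4a1 read 611, 830 and 1091 in air and 1076, 1494 and 3224 in hyperoxia, a difference of 1.05 with an adjusted p of 0.85 in limma. Fos read 1798, 1147 and 922 in air and 1311, 1322 and 1841 in hyperoxia, so its groups overlapped, and the difference was 0.24 (95% interval -0.30 to 0.78). Atf3 was flat, at 200, 171 and 200 in air and 185, 174 and 209 in hyperoxia (difference -0.01, 95% interval -0.47 to 0.45). By limma 0 of 10 members passed, against 0.345% of genes, with 2 members (Egr1 and Nr4a1) and 779 genes at an unadjusted p under 0.05. The member median was 0.27, against -0.01 over all genes, 0.24 over the 9 members without Fosb, and 0.36 without both P5 arrays that stood apart. Egr1 alone passed when KO P5 air replicate 3, the air array with the highest Egr1 signal, was left out.

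**Figure D2:**
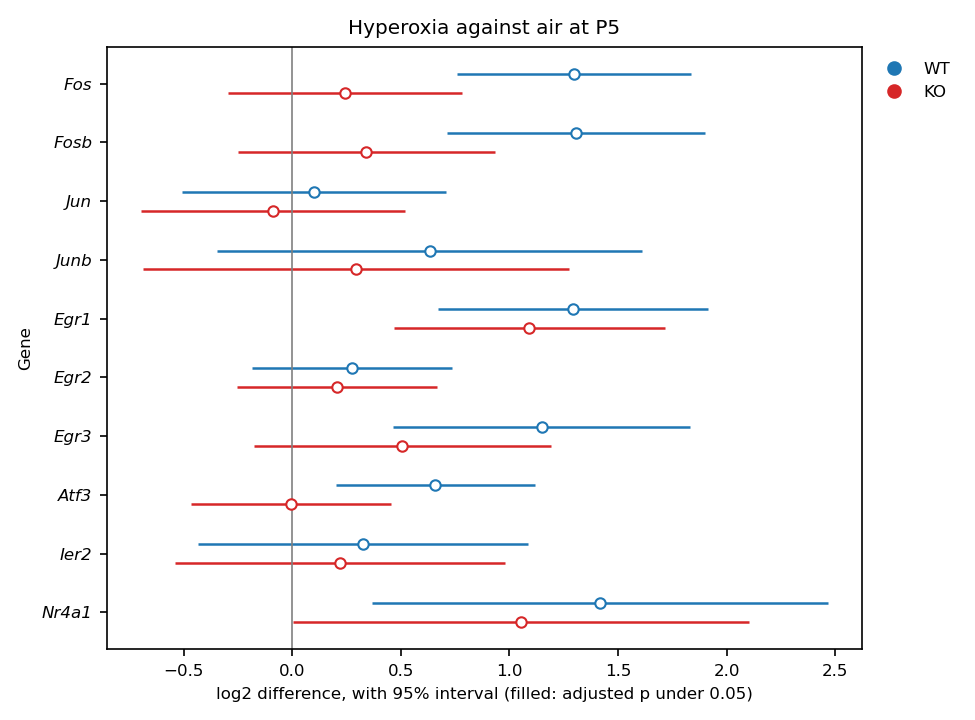
Difference between hyperoxia and air at P5 for each of the 10 genes, in log2 units with 95% intervals from limma, WT in blue and KO in red; open points did not pass an adjusted p of 0.05. All points are open, the WT points lie to the right of the KO points for every gene, and the intervals overlap for every gene.

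The genotype difference in the response to oxygen, tested as an interaction, was negative for all 10 members, but the KO and WT changes were not shown to differ. It was -1.05 for Fos (95% interval -1.82 to -0.29), -0.97 for Fosb (-1.80 to -0.13) and -0.67 for Atf3 (-1.32 to -0.02), and these 3 had an unadjusted p under 0.05. Without Fosb it was 2 of 9 members. All adjusted p-values in limma were 1, so 0 of 10 members passed, where 0.15% of genes did, and 307 genes had an unadjusted p under 0.05. The member median was -0.35 (all genes 0.00), -0.34 over the 9 members without Fosb, and -0.26 without both P5 arrays. With the liver marker level of each array as a covariate Egr2 (0.04) and Ier2 (0.01) turned positive. The second Egr3 probe set, too dim to pass the filter, gave 0.35 for the interaction, against -0.64 for the one used. The second probe sets of Jun (-0.44) and Egr2 (-0.22) were negative as well. The direct comparison of KO with WT in hyperoxia gave 9 of 10 members below 0, with a median of -0.44 and Jun as the exception at 0.04, and the median of the 9 without Fosb was -0.32. Without the array labelled KO P5 hyperoxia replicate 1 and its WT air counterpart the median of all 10 members was -0.28. Every KO array was below every WT array for Junb (440 to 575 against 580 to 667), Egr1 (3393 to 4144 against 4368 to 4940) and Atf3 (174 to 209 against 312 to 360), 3 of 10 members against 8.61% of genes. By limma 0 of 10 passed, where 0.187% of genes did, while 4 members (Fos, Fosb, Egr3 and Atf3) and 403 genes had an unadjusted p under 0.05. Without Fosb it was 3 of 9 members. The second Egr3 probe set differed by 0.27 here, against -0.76 for the one used, while those of Egr2 (-0.28) and Jun (0.04) kept their sign. Atf3 had the lowest adjusted p, 0.492 (difference -0.74, 95% interval -1.20 to -0.28).

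Several marker lists moved with these P5 groups. A list's level on an array is the average of its genes' log2 values, after the 32-array mean of every gene was taken off. The immediate early level was -0.47, -0.44 and -0.32 on the WT air arrays and 0.21, 0.57 and 0.53 on the WT hyperoxia arrays, against -0.43, -0.45 and -0.27 in KO air and -0.18, -0.15 and 0.35 in KO hyperoxia. The level of 11 liver genes was 1.88 to 4.06 in WT air and -0.31 to 0.96 in WT hyperoxia, and -1.74 to -0.09 in KO air and -2.09 to -1.91 in KO hyperoxia. By limma 0.00749% of all genes were called for oxygen in WT and 0.345% in KO. Of the 11 liver genes 0 were called in WT, with a median of -3.00. With that level as a covariate the WT changes were 1.12 for Fos, 1.16 for Egr1 and 1.33 for Nr4a1, with a member median of 0.81, and Jun turned negative (-0.08). In KO hyperoxia the 14 striated muscle genes (1.80 to 2.21) and 8 squamous epithelium genes (2.25 to 2.88) were above KO air (-0.77 to 0.63 and -0.81 to -0.28), with 7 of 14 and 5 of 8 called higher, and their part in the KO values was not tested. The 11 heat shock genes, which handling and heat induce, were level between WT air (-0.19 to -0.10) and WT hyperoxia (-0.27 to -0.06), with 0 of 11 called. In KO they were -0.24 to -0.14 in air and -0.09 to 0.03 in hyperoxia, again with 0 of 11 called, and their part in the KO values was not tested. The 6 macrophage genes ran from -0.70 to -0.06 in WT air and from -0.16 to 0.15 in WT hyperoxia. The squamous level went the other way in WT, from -0.29 to 2.60 in air to -0.72 to -0.48 in hyperoxia (median -1.18, 0 of 8 called). Between genotypes in hyperoxia the 9 neutrophil genes were apart, at -0.39 to -0.28 in KO and 0.40 to 1.11 in WT (median -1.52, 0 of 9 called). Their part in the members' values was not tested.

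The P5 arrays that stood apart in p53 targets did not stand apart in the same way in the immediate early genes. The array labelled WT P5 air replicate 3 had a p53 target level of 1.16, inside the 1.04 to 1.21 of the WT hyperoxia arrays. Its immediate early level of -0.32 was next to the other WT air arrays (-0.47 and -0.44), though the highest of them. On that array Ier2 (3002) and Egr2 (125) lay within the range of the WT hyperoxia arrays, and the other members lay below it. The array labelled KO P5 hyperoxia replicate 1 had a p53 target level of -0.27, near the KO air arrays (-0.43 to -0.36), and an immediate early level of -0.18, close to that of KO hyperoxia replicate 2 (-0.15), whose p53 target level was 1.28. Single members differed on KO hyperoxia replicate 1: Egr1 (4047) lay between the other KO hyperoxia arrays and above all KO air arrays. Nr4a1 (1076), Egr3 (130), Fosb (64.3), Junb (440) and Fos (1311) lay within the range of the KO air arrays. On KO hyperoxia replicate 2, Fos (1322) and Fosb (58.5) also lay within that range, so for these genes it was not particular to replicate 1.

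**Figure D3:**
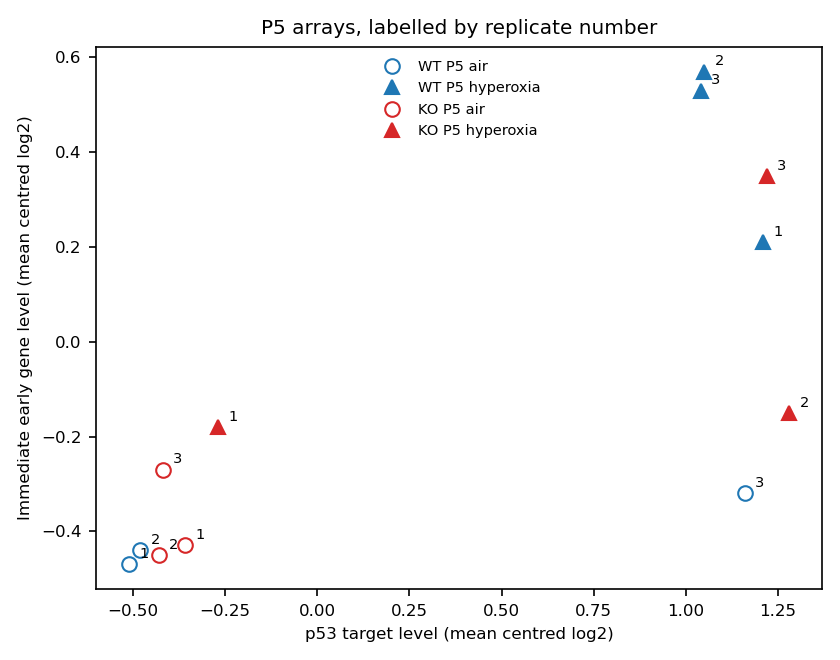
Immediate early gene level against p53 target level on the 12 P5 arrays (mean centred log2), WT in blue and KO in red, open circles for air and filled triangles for hyperoxia, with replicate numbers. WT air replicate 3 lies at the hyperoxia end of the p53 axis (1.16) but with the air arrays on the other axis (-0.32), and KO hyperoxia replicate 1 lies at the air end of the p53 axis (-0.27).

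The clearest change in these genes was with age in room air. Fos read 5687, 6063 and 5836 in WT P56 air, against 781, 824 and 1041 in WT P5 air, a rise in mean signal of 6.65 times. Egr1 read 6363, 7357 and 7799 against 1764, 2246 and 1778. Egr2, the myelination factor that is also an immediate early gene, read 299, 325 and 321 against 85, 138 and 125. The ages did not overlap in any of these 3 genes. In limma 5 of 10 members rose and none fell, where 22.9% of genes passed: Fos by 2.71 (SE 0.26, adjusted p = 1.95e-08), Egr1 by 1.88 (adjusted p = 4.18e-05), Egr2 by 1.28 (adjusted p = 0.000123), Nr4a1 by 1.84 (adjusted p = 0.00932) and Junb by 1.39 (adjusted p = 0.0352). The member median was 0.96, against 0.00 over all genes. Every P56 array was above every P5 array for 8 of the 10 members, all but Egr3 and Atf3, where 27.1% of genes separated in that direction.

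Of the 5 calls in WT, 2 were lost in some fits, with an array left out or with the liver covariate. Nr4a1 read 1576, 3808 and 6842 in WT P56 air, the widest spread of any member there, and without replicate 3 its change was 1.35 (limma, adjusted p = 0.0931). That replicate also had the highest heat shock level of its group, 0.56 against -0.24 and -0.23, and the highest immediate early level, 0.95 against 0.54 and 0.81. The part of handling genes in this spread was not tested. Junb lost its call when any 1 of the 6 arrays was left out, with changes of 1.33 to 1.48 and adjusted p-values of 0.0536 to 0.1 in limma. Its arrays did not overlap between the ages. Junb passed in 12 of 20 alternatives, with adjusted p-values from 1.06e-09 to 0.197 in limma. With the liver level as a covariate Junb (1.21, adjusted p = 0.197) and Nr4a1 (1.72, adjusted p = 0.0731) no longer passed in limma. The liver genes themselves were lower in WT at P56 than at P5, by a median of -3.90, with 10 of 11 called. Other markers moved with age in WT too: 3 of 8 endothelium, 3 of 6 alveolar type 1 and 3 of 5 alveolar type 2 genes were called higher, and 5 of 7 erythroid and 3 of 8 squamous genes lower. The macrophage level went from -0.70 to -0.06 at P5 to 0.44 to 0.65 at P56. Their part in the members' rise was not tested. Without both arrays of high 3'/5' ratio, which enter this comparison only through the shared spread, Jun and Ier2 passed as well.

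KO lung in air also had higher levels at P56. Fos read 7083, 5073 and 5554 at P56 and 1798, 1147 and 922 at P5, and Nr4a1 read 3170, 2937 and 3857 against 611, 830 and 1091, without overlap in either gene. In limma 5 of 10 members rose and none fell, where 29.6% of genes passed: Fos by 2.21 (adjusted p = 5.36e-07), Nr4a1 by 1.97 (adjusted p = 0.0044), Egr1 by 1.38 (adjusted p = 0.000997), Atf3 by 0.72 (adjusted p = 0.0167) and Egr2 by 0.69 (adjusted p = 0.0211). The ages separated for 6 members, these 5 and Junb, against 27.3% of genes, and the member median was 0.70 (all genes 0.00). Egr2 lost its call without KO P5 air replicate 1 (0.61, adjusted p = 0.0761 in limma), replicate 2 (0.69, 0.0505) or KO P56 air replicate 3 (0.59, 0.0898), and with quantile normalization (0.61, 0.0812). Atf3 lost it without KO P5 air replicate 2 (0.65, adjusted p = 0.0649 in limma) or without KO P56 air replicate 1 (0.67, 0.0599) or 2 (0.69, 0.0523). After median centring of the arrays neither Egr2 (0.57, adjusted p = 0.121) nor Atf3 (0.60, 0.0566) passed in limma. Without both arrays of high 3'/5' ratio Junb passed as well. Among markers in KO, 4 of 6 macrophage genes (level -0.73 to -0.52 at P5 and 0.46 to 0.76 at P56), 3 of 4 airway and 3 of 6 alveolar type 1 genes were called higher with age. The heat shock level was -0.24 to -0.14 at P5 and -0.02 to 0.29 at P56, with 2 of 11 genes called higher in KO, while in WT 0 were called higher and 1 lower. In KO 2 of 7 erythroid and 1 of 8 squamous genes were called lower. The part of these lists in the KO rise was not tested. The WT and KO age changes were not tested against each other.

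**Figure D4:**
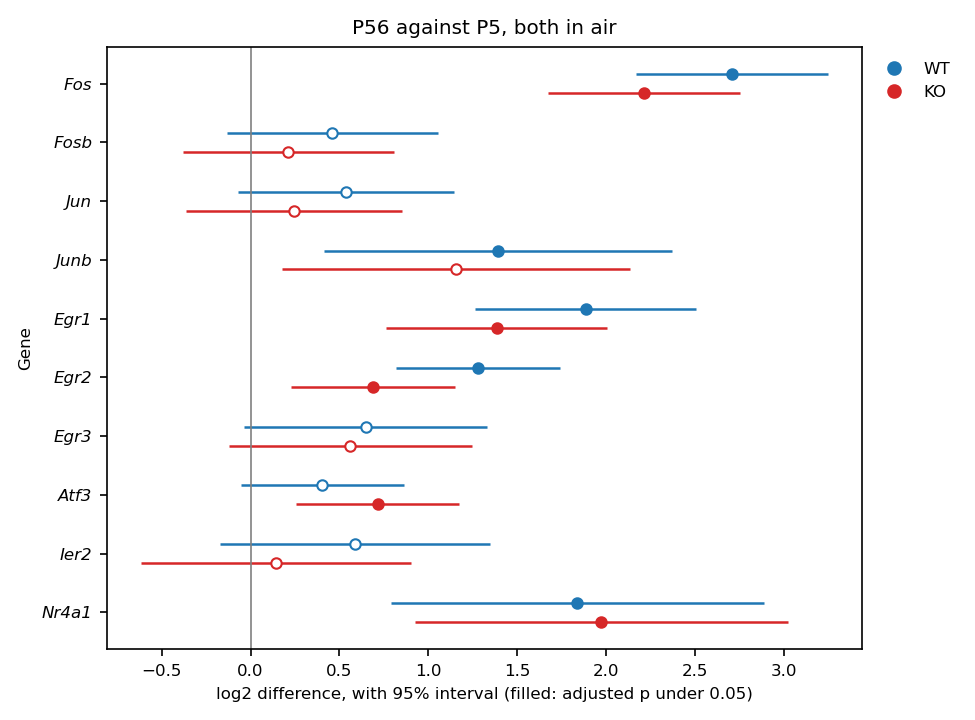
Difference between P56 and P5 in room air for each of the 10 genes, in log2 units with 95% intervals from limma, WT in blue and KO in red; filled points passed an adjusted p of 0.05. Fos is farthest to the right in both genotypes (2.71 and 2.21), and Fosb, Jun, Egr3 and Ier2 are open in both.

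Jun looked different on its 2 probe sets across these ages. The probe set used gave 0.54 in WT and 0.24 in KO, neither passing. The other gave 1.13 in WT (adjusted p = 0.0023 in limma, had it been among the genes tested) and 1.26 in KO (0.000646). The second Egr2 probe set gave 1.54 in WT and 1.11 in KO, in the same direction as the one used (1.28 and 0.69).

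Between E19 and P5, 1 member was called in WT and none in KO. In WT air, Egr2 read 76.8, 52.2, 30.1 and 75.7 at E19 and 85, 138 and 125 at P5, with no overlap, and rose by 0.77 (limma, adjusted p = 0.0144). It was the 1 member called of 10, where 14.6% of genes passed. Its call was lost without WT E19 replicate 3 (0.58, adjusted p = 0.0656 in limma), WT P5 air replicate 2 (0.65, 0.0959) or WT P5 air replicate 3 (0.71, 0.0597), the last being an array that stood apart. In WT every P5 array was above every E19 array for 3 of 10 members, Egr1, Egr2 and Nr4a1, against 16% of genes. Every P5 array was below every E19 array for 2 members, Fos and Egr3, against 13.5% of genes. Egr1 was higher at P5 by 0.81 (adjusted p = 0.0541 in limma) and Fosb by 0.78 (0.051), while the difference for Fos was -0.44 (adjusted p = 0.252). The member median was 0.20, and 0.10 without both P5 arrays that stood apart, where 0 of 10 passed. Without both arrays of high 3'/5' ratio Fosb and Egr1 passed as well. In KO air 0 of 10 members passed in limma, where 3.45% of genes did, with 3 members (Fos, Fosb and Egr1) and 2748 genes at an unadjusted p under 0.05. Without Fosb it was 2 of 9 members. The KO median was 0.37 with 8 members positive, and 0.16 with 6 positive without both arrays of high ratio. Egr1 differed there by 0.90 (adjusted p = 0.0691 in limma) and passed without KO E19 replicate 4, while Egr1 and Fos both passed without KO P5 air replicate 1.

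KO and WT lungs were compared within each age and exposure to ask what loss of Gsr went with. At E19, Fos read 2570, 1895, 1473 and 1747 in KO and 1503, 1117, 1074 and 1139 in WT, a difference of 0.64 (95% interval 0.17 to 1.11; limma, adjusted p = 0.0566). The groups overlapped by 1 KO array below the highest WT array. Egr3 read 269, 55.6, 100 and 126 in KO and 207, 219, 229 and 181 in WT, and the KO array above all WT arrays was replicate 1, the array with the highest 3'/5' ratio. With all arrays Egr3 differed by -0.67 (limma, adjusted p = 0.113). Without both arrays of high 3'/5' ratio the difference was -1.01 and passed (limma, adjusted p = 0.00971). In limma 0 of 10 members passed with all arrays, where 15.2% of genes did, and 2 members (Fos and Egr3) and 4096 genes had an unadjusted p under 0.05. The member median was 0.03, and 0.31 without both arrays of high ratio. Fos passed in 3 of 22 alternatives: without WT E19 replicate 1, without KO E19 replicate 3 or after median centring (0.92, adjusted p = 0.0147 in limma). Without both arrays of high ratio the Fos difference was smaller, 0.49 (limma, adjusted p = 0.161). The highest KO reading of Fos, 2570, was on replicate 1, the array with the highest 3'/5' ratio. The second Egr2 probe set differed by 1.15 (adjusted p = 0.0101 in limma, had it been tested), against 0.34 for the one used. The second Egr3 probe set, too dim to pass the filter, differed by -0.09, against -0.67 for the one used. The liver genes, the 7 erythroid genes and the 9 neutrophil genes were lower in KO at E19, with medians of -4.72, -2.10 and -1.60. With the liver level as a covariate neither Fos (0.37, adjusted p = 0.543) nor Egr3 (-0.52, 0.502) passed in limma.

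In room air after birth no member passed between the genotypes. At P5, 0 of 10 members passed in limma, where 0.0375% of genes did, and 0 members and 743 genes had an unadjusted p under 0.05, with a member median of -0.05 (0.01 without both P5 arrays) and Fos at the top (0.49). At P56, 0 of 10 passed, where 0.0749% of genes did, with 1 member (Egr2) and 1580 genes at an unadjusted p under 0.05. Egr2 read 176, 165 and 216 in KO P56 air, below the 299, 325 and 321 of WT, a difference of -0.69 (95% interval -1.15 to -0.23; limma, adjusted p = 0.195). Egr1 (4240 to 5211 against 6363 to 7799) and Ier2 (2456 to 2983 against 3602 to 4358) were also lower on every KO array, which makes 3 of 10 members against 16.6% of genes. In all, 9 of 10 members were below 0, with a median of -0.16. When limma was fitted on these groups alone, or with array weights, those 3 members passed. The share of all genes that passed in those fits is not given here, so these calls are not a result about the members. The 3'/5' ratio (log2) was also apart between these groups, 0.68 to 1.05 in KO and 0.21 to 0.36 in WT, as was the level of 4 airway genes, 0.46 to 0.68 in KO and -0.14 to 0.35 in WT. Their part in these differences was not tested. The second Jun probe set differed by 0.61 against -0.07 for the one used.

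At P56, mice that had been in oxygen as newborns were compared with mice kept in air. In WT 0 of 10 members passed in limma, where 0% of genes did, and 0 members and 681 genes had an unadjusted p under 0.05. Junb read 929, 150 and 1171 after hyperoxia and 1095, 1183 and 1001 in air, and the low value belonged to replicate 2, an array of high 3'/5' ratio. Its difference was -0.93 with that array and -0.06 without both arrays of high ratio, and the member median went from -0.28 to 0.01. In KO 0 of 10 passed in limma, again where 0% of genes did, with 2 members (Fos and Egr1) and 360 genes at an unadjusted p under 0.05. Egr1 (2395 to 3435 against 4240 to 5211) and Junb (603 to 868 against 905 to 1003) were lower on every KO array after hyperoxia, 2 of 10 members against 6.15% of genes. Fos read 2889, 3197 and 6237 after hyperoxia and 7083, 5073 and 5554 in air, a difference of -0.59 (95% interval -1.13 to -0.05; limma, adjusted p = 1). KO against WT after hyperoxia gave 0 of 10 members in limma, where 0.0375% of genes passed, with 2 members (Fos at -0.67 and Egr1 at -0.73) and 1164 genes at an unadjusted p under 0.05. Its member median was -0.19, and -0.42 without both arrays of high ratio. The genotype-by-oxygen term at P56 gave 0 of 10 members, where 0% of genes passed, with 0 members and 328 genes at an unadjusted p under 0.05. That term had 4 members positive and 6 negative, with a median of -0.07. Without both arrays of high ratio 1 was positive and 9 were negative, with a median of -0.25.

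Jun, Junb and Ier2 were lowest where the 3'/5' ratio was highest. On KO E19 replicate 1 and WT P56 hyperoxia replicate 2, the arrays of high 3'/5' ratio, Jun read 1768 and 2308, Junb 81.1 and 150, and Ier2 684 and 949, each the lowest of its group. Nr4a1 was also the lowest of its groups there, at 254 and 1581, the latter close to another array of its group (1595). Fos was not low on these arrays, at 2570 and 6072. Over the 32 arrays the correlation of a gene's log2 level with the 3'/5' ratio (log2) was -0.79 for Ier2, -0.65 for Jun and -0.50 for Junb, and 0.29 for Fos, as a description that rests largely on these arrays. A low reading of Jun, Junb or Ier2 there cannot be told apart from the state of the RNA.

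**Figure D5:**
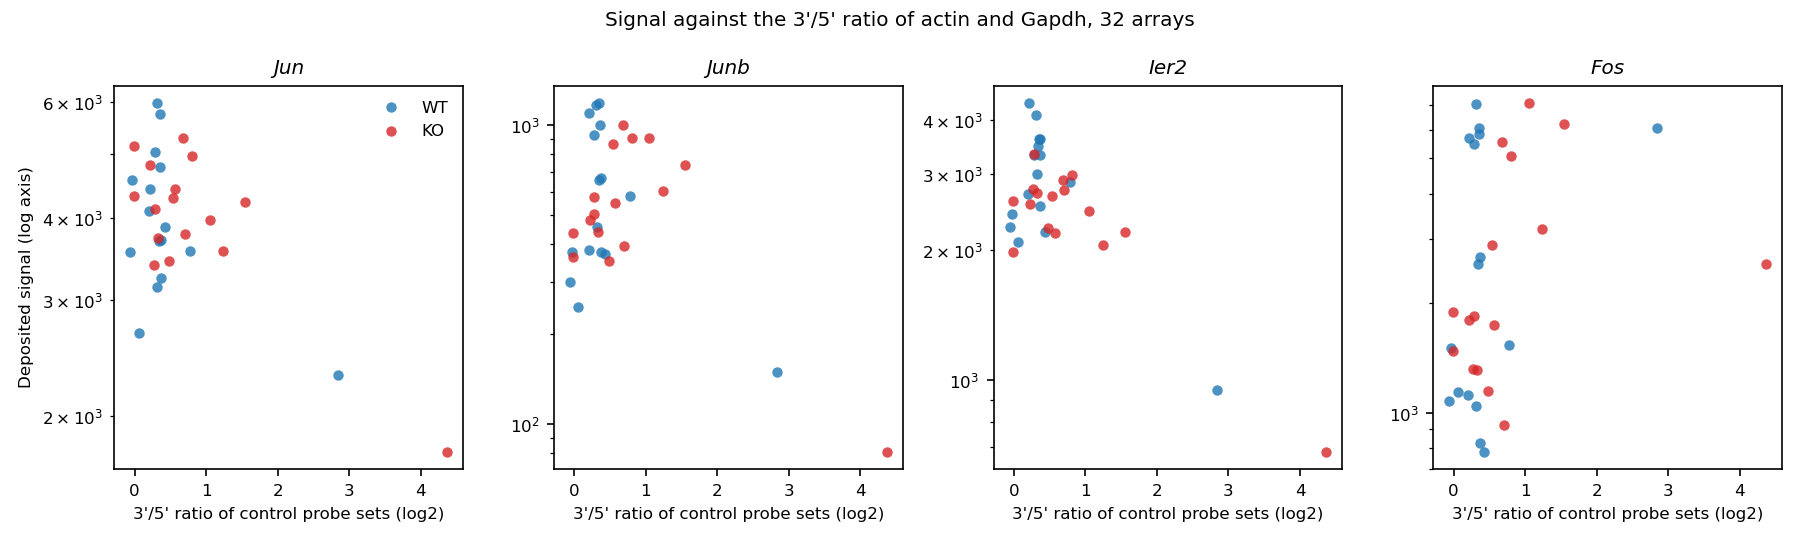
Deposited signal (log axis) of Jun, Junb, Ier2 and Fos against the 3'/5' ratio (log2) on the 32 arrays, WT in blue and KO in red. Jun, Junb and Ier2 are lowest on the array at 4.37 (684 for Ier2), whereas Fos reads 2570 there.

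The members correlated more across all arrays than within groups. Over the 32 arrays the 45 pairs of members had a median Pearson correlation of 0.53 (range -0.11 to 0.89), and after each group's mean was removed the median was 0.15 (range -0.42 to 0.95, with 28 of 45 positive). Without the 2 arrays of high 3'/5' ratio it was 0.27 (range -0.29 to 0.82, with 38 of 45 positive). Within groups the closest pairs were Junb with Ier2 (0.95), Jun with Junb (0.89) and Jun with Ier2 (0.87), and these became 0.55, 0.50 and 0.40 on the 30 arrays without high 3'/5' ratio. On those 30 arrays the closest pair was Egr3 with Nr4a1 (0.82), which had been 0.34 with all arrays. All pairs share the same arrays, so the values are descriptions.

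Among genes outside the list, Relb, an NF-kappaB subunit, tracked the mean level of the members most closely over the 32 arrays (r = 0.91), followed by Ccn1, a matricellular protein gene that is itself an immediate early gene (0.90), Atp2a3 (0.89), Cx3cl1 (0.89), Cdc42se2 (0.88), Abcc3 (0.88), Gm2a (0.87), Slc3a2 (0.87), Kcnk2 (0.86) and Sorl1 (0.86). With group means removed these ranged from 0.21 (Kcnk2) to 0.79 (Ccn1), and Relb was at 0.71. Of the members, Nr4a1 (0.95) and Egr1 (0.93) lay closest to the mean they are part of, and Jun (0.53) and Egr3 (0.55) farthest.

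Among other genes of the same class, members were called with age and none with oxygen at P5. Of 35 other immediate early genes listed, 32 were measured. At P5, 0 of the 32 passed in limma between hyperoxia and air in either genotype. Over all genes 0.00749% were called in WT and 0.345% in KO, so the count of 0 stands near those shares. The list medians were 0.27 in WT and 0.02 in KO (all genes -0.02 and -0.01). From P5 to P56 in air, 9 rose and 1 fell in WT, with a median of 0.28, where 22.9% of all genes were called, and 7 rose and 3 fell in KO, with a median of 0.38, where 29.6% of all genes were. In KO the 10 of 32 called stand near the share over all genes. In WT the largest were Ier3, a survival factor, by 1.60 (adjusted p = 4.42e-06 in limma), Ptgs2, the inducible cyclooxygenase, by 1.38, Zfp36, which destabilises mRNAs, by 1.37, Btg2 by 1.15, Klf2 by 1.03 and Cebpd by 1.02. In KO they were Ptgs2 by 2.66 (adjusted p = 3.28e-06 in limma), Ccn1 by 1.48, Klf2 by 1.40, Ier3 by 1.16 and Sgk1 by 1.12, while Trib1 fell by 1.75 on the log2 scale. From E19 to P5 in WT, where 14.6% of all genes were called, 6 rose and 5 fell, with Sgk1 (1.63), Ptgs2 (1.47) and Klf2 (1.08) among the risers and Gadd45g (-2.25), Maff (-1.40) and Cebpd (-1.28) among those that fell. In KO, where 3.45% of all genes were called, 0 rose and 1 fell over that interval, Cebpd (-0.98). At E19, where 15.2% of all genes were called, 3 were higher in KO than in WT, Ptgs2 by 1.13, Klf2 by 0.79 and Klf6 by 0.35, and 3 lower, Gadd45g (-1.41), Plk3 (-0.94) and Ier5l (-0.81).

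Feedback genes, the phosphatases and inhibitors that the same signals switch on and that then shut the pathway, were all measured (14 of 14). Dusp1, which inactivates MAP kinases, rose from P5 to P56 by 2.14 in WT (adjusted p = 4.75e-07 in limma), from a mean of 2524 to 11291. It also rose in KO (adjusted p = 1.36e-06 in limma), from 3087 to 12348. Nab1, a corepressor of Egr proteins, rose by 0.51 in WT and 0.61 in KO. In KO the ERK inhibitors Spred2 (-1.15), Spred1 (-0.81) and Spry1 (-0.74) fell over the same interval, and 2 of 14 rose and 3 fell in all (29.6% of all genes called), while 2 rose and 0 fell in WT (22.9% of all genes called). From E19 to P5 in WT, where 14.6% of all genes were called, 3 of 14 rose: Dusp8 by 1.76, Dusp10 by 1.48 and Dusp4 by 0.74. At E19, where 15.2% of all genes were called, 3 of 14 were higher in KO: Dusp4 (0.93), Spry2 (0.71) and Dusp6 (0.43). None of the 14 was called at P5 between hyperoxia and air, where 0.00749% of all genes were called in WT and 0.345% in KO. The list medians were 0.18 in WT and 0.05 in KO.

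A further list held kinases, receptors and factors that act before the members, together with Batf, Batf3 and Jdp2, whose proteins pair with Jun proteins. Of 26 listed, 22 were measured. At P5 none was called between hyperoxia and air in either genotype (medians 0.01 in WT and -0.03 in KO). Over all genes 0.00749% were called there in WT and 0.345% in KO. From P5 to P56, 1 rose and 1 fell in WT, the receptor gene Pdgfra by 1.13 and Batf (-0.92), where 22.9% of all genes were called. In KO 1 rose, Jdp2 by 0.54, and 5 fell: Mapk7 (-1.07), Map2k2 (-0.96), Map2k1 (-0.64), Creb1 (-0.58) and Elk3 (-0.55), where 29.6% of all genes were called. From E19 to P5 in WT, where 14.6% of all genes were called, Pdgfrb (1.28), Elk3 (0.83) and Batf (0.75) rose and Mapk14 (-0.82) fell. Pdgfrb was also higher in KO than in WT at E19 (1.18, limma adjusted p = 0.0173), where 15.2% of all genes were called. WT P5 air arrays entered the oxygen and the age comparisons alike, so those are not independent.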

How the data were processed

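The deposited intensity values of 45101 probe sets on 32 arrays were used on the linear scale; MAS5 is named per the submitters' processing notes, and its version, detection calls and scan dates are not given in the sources used here. The mean of each array without its lowest and highest 2% was 500, so the authors had scaled the arrays. Here an offset of 26.33 (the lower quartile of the deposited signals) was added and log2 taken, with no further scaling. Probe sets with 1 gene symbol and a signal above 100.43 on at least 3 arrays were kept, 1 per gene by highest mean signal, giving 13345 genes (9160 probe sets without a symbol, 932 with several and 64 controls were left out).

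All arrays entered 1 limma 3.58.1 fit (R 4.3.3) with 10 group means, 22 residual degrees of freedom and a trended variance prior. The 15 comparisons used two-sided tests and called a gene at a Benjamini-Hochberg adjusted p, over the 13345 genes, under 0.05. The script was tested on simulated data. The alternatives were other filters, offsets and scalings, array weights, no trend, the replicate number as a block, a liver covariate, fits of the compared groups alone and arrays left out.

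Genes named are the 10 members, called genes of 3 related lists (at most 6 per comparison), the 10 genes most correlated with the members, Gsr and Cdkn1a. The members and lists were chosen with earlier results of these data known. The number of arrays limits the precision.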

Additional observations from a re-analysis of the deposited data

Results flagged for a closer look

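In each E19 group of 4 arrays the highest and the lowest signal of every member were set against the spread of the group by Dixon's ratio, in 20 groups in all. This picked out 3 readings, where chance picks out about 1 group in 20. Fos in WT E19 replicate 1 was 1503, above 1074 to 1139 on the other arrays. Fosb in KO E19 replicate 2 was 19.5, below 34 to 35.9. Egr1 in KO E19 replicate 4 was 1524, above 752 to 878. None of these arrays was KO E19 replicate 1, the array with the highest 3'/5' ratio.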

How the results depend on the processing

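The number of members called was most open to array weights, with which limma called 5 members for KO against WT in P5 hyperoxia, 3 for that contrast in P56 air, 5 after hyperoxia at P56, 8 and 4 for oxygen at P5 in WT and KO, 1 and 1 at P56, 3 for genotype by oxygen at P5, 3 and 1 for P5 against E19 in WT and KO, and 8 and 8 for P56 against P5. The cause was not tested. For oxygen at P5 in WT, array weights also raised the number of all genes called, as given above. The shares of all genes called with weights, or with the compared groups alone, are not given here. These counts are therefore not a result about the members. For P5 against E19 in WT the count of 1 became 2 with an offset of 1, quantile normalization, no variance trend, the liver covariate or the compared groups alone, 3 without both arrays of high 3'/5' ratio (chosen after seeing the data) and 0 without both P5 arrays that stood apart. For P56 against P5 the WT count of 5 became 3 with the liver covariate and 8 with the compared groups alone, and the KO count of 5 became 3 with median centring. KO against WT gave 1 at E19 with median centring or without both arrays of high ratio, and 3 in P56 air with the compared groups alone.

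Leaving out 1 array at a time gave 0 to 1 for KO against WT at E19, 0 to 1 for oxygen in KO at P5, 0 to 2 for P5 against E19 in WT and 0 to 2 in KO, 3 to 4 for P56 against P5 in WT and 3 to 5 in KO, and 0 for each other comparison. No called member change turned its sign under any alternative.

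Same-numbered arrays deviated together (r over 0.1) in 10 of 40 pairs, with a range of -0.41 to 0.28, so the numbers were not taken to pair the samples elsewhere. In 1 of 13 comparisons, KO against WT in P5 hyperoxia, every pair was over 0.1. With the replicate block 0 members and 24 genes passed there (25 without it), the count for P5 against E19 in WT became 2, and no other count of members changed.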
